A study of Mus musculus with 8 samples.

Results

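Ccl28 and 9 further chemokine genes (Cxcl12, Cx3cl1, Cxcl16, Cxcl1, Ccl2, Ccl5, Ccl8, Cxcl10 and Cxcl13) were followed through 8 mouse kidney libraries. They are 10 of the 23386 genes measured, each found by its gene symbol. The set was selected on earlier results of the comparison of knockout with wild-type kidneys in these same libraries, so the knockout values of these 10 genes are given as a description and not as a test. The kidneys were whole left organs of mice aged 49 weeks, 4 wild-type (WT) and 4 Ctrp1-/- (KO), with 1 library per animal. KO animals lack CTRP1, a secreted relative of adiponectin encoded by C1qtnf1, through a germline deletion of 679 bases that took the coding part of the gene's largest exon and 162 bases of the 3′ untranslated region. The allele was made in 129S5 stem cells and crossed to C57BL/6J for more than 6 generations, and WT animals were littermates from the same heterozygous parents. The labels give no sex for single animals, and all 8 libraries held Ddx3y of the Y chromosome (9.50 to 13.3 scaled FPKM) and almost no Xist (at most 0.0170), the pattern of male tissue.

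Chemokines are small secreted proteins that guide leukocytes along gradients, and they are sorted into CC, CXC and CX3C classes by the spacing of their first cysteines. Some are made steadily by resident cells, such as CXCL12 of stromal and endothelial cells, whereas others, such as CCL2, CXCL1 and CXCL10, are switched on by NF-kB or interferon signalling in injured or inflamed kidney. CCL28 is an epithelial chemokine of mucosal surfaces, known for drawing antibody-secreting plasma cells through the receptor CCR10 and eosinophils through CCR3.

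The level of a gene is given as scaled FPKM, the deposited FPKM (fragments per length of gene and depth of library) divided by 1 factor per library (0.975 to 1.03), so that levels of different genes can be compared per length. The libraries held 15027400 to 19256378 counted reads, of which 7.33% to 8.83% came from mitochondrial genes. The targeted gene C1qtnf1 was the check of the labels, with 2.75 to 4.76 scaled FPKM over the WT libraries against 0.189 to 0.576 over those of KO. Tissue identity was plain from the proximal tubule markers, which summed to 4157 to 4768 scaled FPKM in WT and 3989 to 4329 in KO. WT replicate 3 stood apart in the summed level of the 10 tubule injury genes, at 798.6 scaled FPKM against 411 to 562 in the other 7 libraries. Such a sum is weighted to the most abundant genes of the list, and the listed gene Sox9 was at only 0.998 there. It does not show that the 10 genes rose together. Because these are whole kidneys, fewer cells of a type and less RNA per cell cannot be told apart.

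The promoters of 7 of the 10 genes were found in RefSeq's sequences for build GRCm38.p6, which cover 250 bases before to 50 after each start site, and both strands were searched for 3 motifs. The NF-kB-like motif GGNNNTTCC, found in 18.5% of all 32851 promoters, occurred at 2 positions in Cxcl1, at 2 in Cxcl10 and at 1 in Cx3cl1. The interferon response motif GAAANNGAA, found in 8.56% of promoters, occurred once, in Cxcl10. The TATA box letters TATAAA, found in 13.6%, occurred in Cx3cl1, Ccl8 and Cxcl13. None of the 3 motifs was in the window of Ccl28 or of Cxcl12, which says only that these letters are not there. The stretches below are shown because they hold the motifs of the inducible Cxcl1 (1 of its 2 NF-kB-like positions) and Cxcl10. Each is written 5′ to 3′ on the strand of its gene with the motif in capitals. Counted from the start site, the motif begins at -70 in Cxcl1 and, in the order printed, at -213, -158 and -103 in Cxcl10. The matches at -70 and -158 read as the motif on both strands and were counted once. A match is a description of letters, not evidence of a bound factor.
Cxcl1 NF-kB-like (chr5:90891165-90891194, plus strand): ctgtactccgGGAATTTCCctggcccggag
Cxcl10 interferon response (chr5:92349083-92349112, minus strand): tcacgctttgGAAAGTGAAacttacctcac
Cxcl10 NF-kB-like (chr5:92349028-92349057, minus strand): gaggggagagGGAAATTCCaagttcatggg
Cxcl10 NF-kB-like (chr5:92348973-92349002, minus strand): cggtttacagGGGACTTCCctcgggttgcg

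Over all 8 libraries, Cxcl12 (mean 27.1 scaled FPKM, SD 3.78) and Cx3cl1 (26.5, SD 1.98) were the most abundant of the 10. They could not be ordered, since Cxcl12 was the higher of the pair in 4 of 8 libraries. Cxcl16 followed at 15.0 (SD 1.20), and its range did not overlap that of Cx3cl1. Ccl28 was next at 8.27, with an SD of 5.75 that set it apart from its neighbours in the order. It was below Cxcl16 in 6 of 8 libraries and above it in KO replicates 1 and 2, and it was above Cxcl10 in 6 of 8. Cxcl10 (3.88, SD 0.910), Ccl5 (3.21, SD 1.18), Ccl8 (2.16, SD 1.67), Cxcl13 (1.22, SD 0.381), Ccl2 (1.03, SD 0.755) and Cxcl1 (0.848, SD 0.390) made up the low end, and each overlapped the next in its range over libraries. Within a library, Ccl28 ranked between 3 and 4 of the 10 genes in all KO libraries and in WT replicates 1 and 4, and 8 of 10 in WT replicates 2 and 3.

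**Figure D1:**
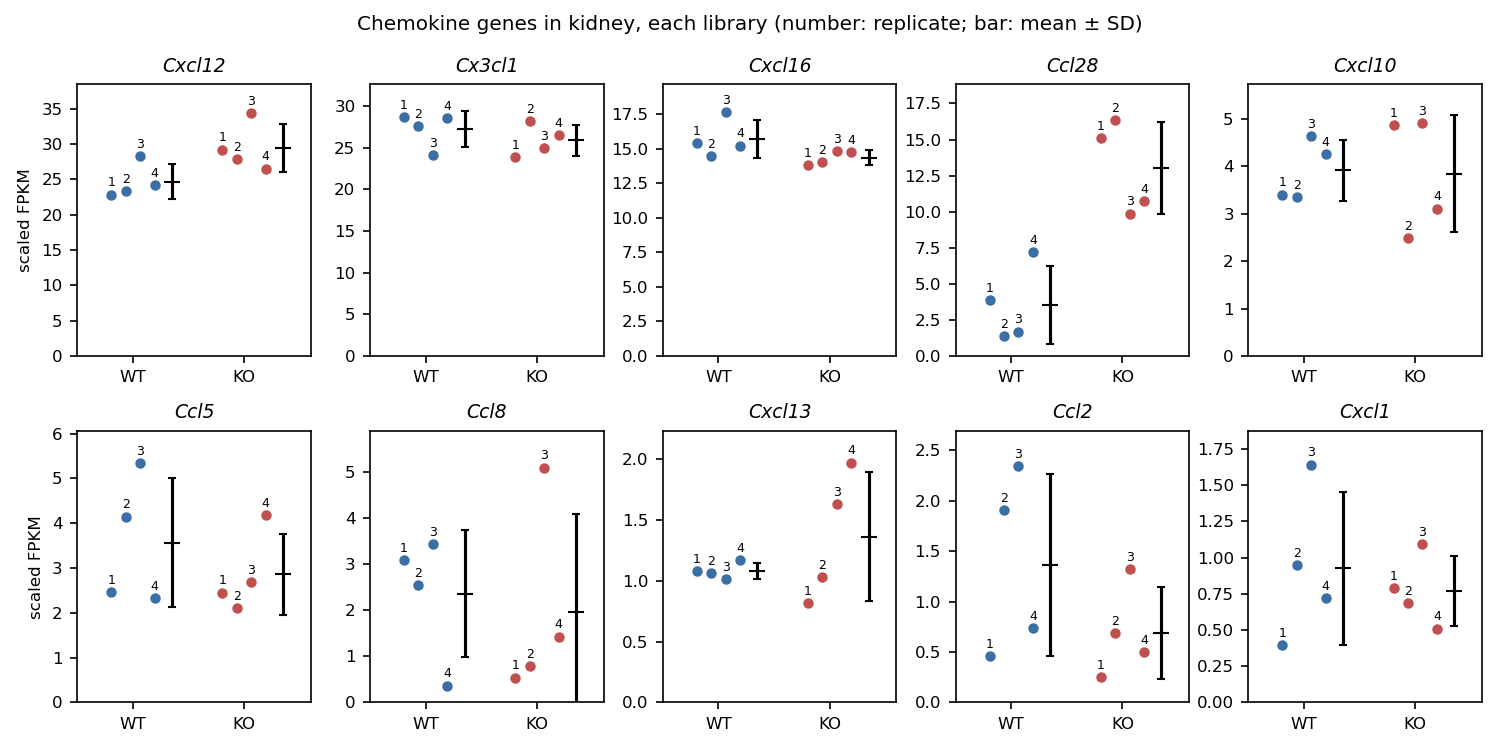
Scaled FPKM (vertical axes, linear, from 0) of the 10 chemokine genes in each WT (blue) and KO (red) kidney library, in the order of their mean level; numbers are replicates and the bar beside each group is the mean ± SD (n = 4; the bar of Ccl8 in KO is clipped at 0). Ccl28 is the gene whose groups do not overlap, at 1.36 to 7.19 in WT and 9.87 to 16.3 in KO.

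Ccl28 (ENSMUSG00000074715; chromosome 13, 119623819 to 119654354, plus strand, mm10) was the gene that differed most between the genotypes among the 10. It measured 3.87, 1.36, 1.69 and 7.19 scaled FPKM in WT replicates 1 to 4 and 15.1, 16.3, 9.87 and 10.7 in KO replicates 1 to 4. The groups did not overlap, and the lowest KO library lay above the highest WT library, WT replicate 4. The WT mean of 3.53 ± 2.68 stood against 13.0 ± 3.19 for KO (SD, n = 4), 3.69-fold higher in KO. The log2 difference was 1.95 (SE 0.40, 95% interval 1.06 to 2.84) on the log2(scaled FPKM + 0.5) scale. These values rest on 90 to 432 reads per WT library and 638 to 1212 per KO library. Counting error is small beside the spread: the chi-square of the reads per degree of freedom was 127 within WT and 51.3 within KO, where counting alone gives about 1. Among the WT libraries, replicate 4 was closer to KO replicate 3 than to WT replicate 2 in scaled FPKM.

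Ccl28 supplied 1.69% to 8.49% of the summed scaled FPKM of the 10 genes in WT and 9.80% to 17.3% in KO. The sum of the 10 was 80.7 to 90.1 in WT and 90.2 to 100.8 in KO. Without Ccl28 the sums overlapped, at 77.6 to 88.4 in WT and 76.6 to 90.9 in KO.

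In the limma fit across 14030 genes, in which all 10 chemokines passed the filter on low values, 0 of the 10 were called at an adjusted p under 0.05, against 0.0499% of all genes tested. Their adjusted p ran from 0.133 for Ccl28 to 0.908 for Cxcl10. At an unadjusted p under 0.05 there were 2 of 10, Ccl28 and Cxcl12, against 15.4% of all genes. Only Ccl28 had groups without overlap, 1 of 10 against 8.62% of all genes. With the choice of these genes made from this contrast, nothing is read from those counts. The adjusted p of Ccl28 was 0.0384 without WT replicate 4 (log2 difference 2.34), so that the call depended on that library, and it lay between 0.0642 and 0.342 in the other 18 alternatives. The difference itself stayed between 1.66 and 2.34 in all 19.

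Cxcl12, the ligand of CXCR4 that holds stem cells and lymphocytes in their niches and patterns kidney vessels (chromosome 6, 117168535 to 117181367, plus strand), was slightly higher in KO. It measured 22.8, 23.3, 28.3 and 24.2 scaled FPKM in the WT libraries and 29.2, 27.9, 34.3 and 26.5 in the KO libraries. The groups overlapped through WT replicate 3, which lay above KO replicates 2 and 4. The means were 24.7 ± 2.47 and 29.5 ± 3.42 (SD, n = 4), a log2 difference of 0.25 (SE 0.09, 95% interval 0.05 to 0.45). Its endothelial and stromal sources were followed by marker lists. KO replicate 3, the highest library for Cxcl12, was also the highest for the 8 endothelial markers, at 242 scaled FPKM in sum against 186 to 223 in the other 7, and the lowest for the 8 stromal markers, at 95.6 against 103 to 125. Their part in the Cxcl12 values was not tested, and without KO replicate 3 the log2 difference was 0.18.

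Cx3cl1 and Cxcl16 encode the chemokines that are built as membrane proteins on a mucin stalk and freed by the proteases ADAM10 and ADAM17. Cx3cl1, or fractalkine (chromosome 8, 94772009 to 94782423, plus strand), measured 28.6, 27.6, 24.1 and 28.5 scaled FPKM in WT and 23.9, 28.2, 25.0 and 26.5 in KO. Its ranges coincided almost fully, and the log2 difference of -0.07 (SE 0.07) had a 95% interval of -0.23 to 0.09. This was the steadiest of the 10 genes, with a highest library only 1.20-fold above the lowest. Cxcl16 (chromosome 11, 70453983 to 70459984, minus strand) measured 15.4, 14.5, 17.7 and 15.2 in WT and 13.8, 14.1, 14.9 and 14.8 in KO. WT replicate 3 was its highest library, and WT replicates 1 and 4 also lay above all KO libraries. The groups overlapped through WT replicate 2, which lay inside the KO range. The log2 difference was -0.12 (SE 0.07, 95% interval -0.27 to 0.03), and -0.064 without WT replicate 3. The span of Cxcl16 overlaps that of Zmynd15 on the opposite strand (5.06 ± 0.129 scaled FPKM in WT and 4.17 ± 0.319 in KO), and with the strand setting of the counting unknown here, the reads of the shared stretch make its value less certain. Of the 6 tested proteases that cut chemokines, 0 were called (adjusted p from 0.377 for Adam17). Adam10 was at 17.0 ± 1.22 scaled FPKM in WT and at 18.3 ± 0.949 in KO, Adam17 7.35 ± 0.693 and 8.12 ± 0.320, and Dpp4, which clips and inactivates CXCL12, 14.6 ± 1.56 and 13.7 ± 0.543.

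Ccl2, Ccl8 and Ccl5 lie in the CC chemokine cluster of chromosome 11, the chromosome of C1qtnf1, but 34.9 to 36.4 Mb away from it. Cxcl16, on the same chromosome, is 48.0 Mb away. Ccl2, the main attractant of CCR2-bearing monocytes (82035571 to 82037453, plus strand), measured 0.461, 1.91, 2.34 and 0.738 scaled FPKM in WT and 0.249, 0.689, 1.32 and 0.499 in KO. WT replicates 2 and 3 were the highest 2 of the 8, and WT replicates 1 and 4 lay inside the KO range. The log2 difference of -0.58 had an SE of 0.37 and a 95% interval of -1.42 to 0.25, from 4 to 41 reads per library. It ran from -0.33 (without WT replicate 3) to -0.85 (without WT replicate 1) when single libraries were left out.

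Ccl8, a monocyte attractant that in mice also acts on CCR8 (82115185 to 82116799, plus strand), was the most scattered gene of the set. It measured 3.09, 2.54, 3.43 and 0.365 scaled FPKM in WT and 0.534, 0.788, 5.09 and 1.43 in KO. The highest and the lowest library, KO replicate 3 and WT replicate 4, were 13.9-fold apart, at 45 reads (95% Poisson interval 32.8 to 60.2) and 3 reads (0.619 to 8.77). Both genotypes thus held high and low libraries, and the log2 difference of -0.34 (SE 0.59) had a 95% interval of -1.66 to 0.97. Leaving out single libraries moved it from -0.039 (without KO replicate 1) to -0.85 (without KO replicate 3), with -0.12 without WT replicate 3 and -0.14 without KO replicate 2. Ccl5, made by T cells and injured epithelium and read by CCR1 (83525778 to 83530518, minus strand), measured 2.46, 4.14, 5.34 and 2.33 in WT and 2.45, 2.11, 2.68 and 4.18 in KO. The groups overlapped widely, with a log2 difference of -0.25 (SE 0.25, 95% interval -0.81 to 0.32). It was -0.049 without WT replicate 3, its highest library, and -0.42 without KO replicate 4.

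Cxcl1, the neutrophil attractant read by CXCR2, Cxcl10, the interferon-induced attractant of CXCR3-bearing T cells, and Cxcl13, which gathers B cells through CXCR5, all lie on chromosome 5. Cxcl1 (90891241 to 90893115, plus strand) measured 0.397, 0.949, 1.64 and 0.718 scaled FPKM in WT and 0.788, 0.687, 1.09 and 0.510 in KO. With 6 to 25 reads per library it was the lowest of the 10, and its 95% interval for the log2 difference, -0.68 to 0.44, covered changes in either direction. Cxcl10 (92346638 to 92348889, minus strand) measured 3.40, 3.36, 4.63 and 4.26 in WT and 4.87, 2.48, 4.91 and 3.11 in KO. The KO libraries enclosed all WT libraries, and the log2 difference was -0.06 (SE 0.19, 95% interval -0.49 to 0.38). Cxcl10 lies inside the span of Art3, which runs on the opposite strand at 1.90 ± 0.472 scaled FPKM in WT and 1.55 ± 0.213 in KO, with the same limit as for Cxcl16.

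Cxcl13 (95956928 to 95961067, plus strand) was even across WT, at 1.08, 1.06, 1.01 and 1.17 scaled FPKM, and uneven across KO, at 0.815, 1.03, 1.63 and 1.97. Its reads in WT, 19 to 22 per library, varied less than counting alone would give (chi-square per degree of freedom 0.0718), whereas in KO the figure was 3.97. KO replicates 3 and 4 lay above all WT libraries and KO replicate 1 below them. The log2 difference of 0.19 (SE 0.19) had a 95% interval of -0.22 to 0.61, and it was 0.34 without KO replicate 1 and 0.041 when KO replicate 4 was left out.

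**Figure D2:**
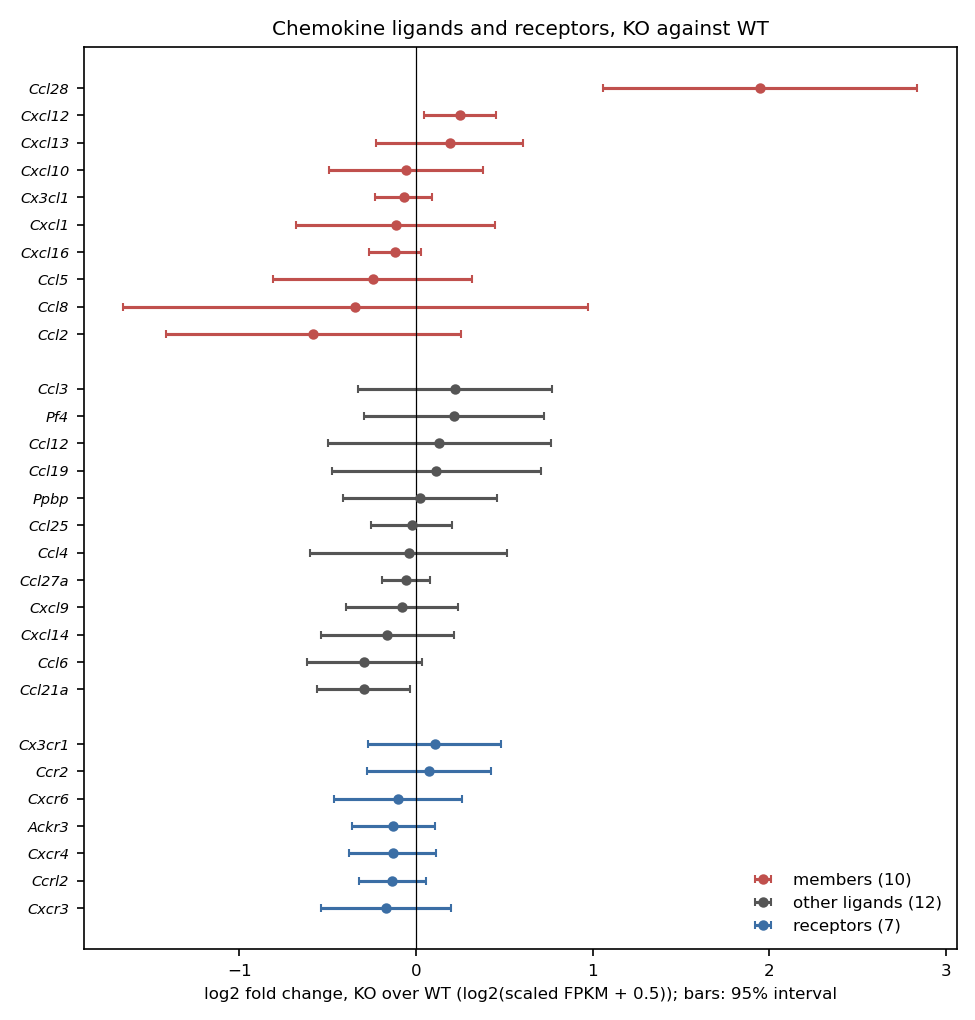
Log2 fold change of KO over WT on the log2(scaled FPKM + 0.5) scale (horizontal axis) with its 95% interval for the 10 chemokines described here (red), the 12 tested other ligands (grey) and the 7 tested receptors (blue). Ccl28 stands at 1.95 and the other 9 members between -0.58 and 0.25.

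High values of several chemokines lay in the same libraries. WT replicate 3 was the highest of the 8 libraries for 4 of the 10 genes, Cxcl16, Ccl5, Ccl2 and Cxcl1, and KO replicate 3 was the highest for 3, Cxcl12, Cxcl10 and Ccl8. KO replicate 1 was the lowest for 4, Cx3cl1, Cxcl16, Ccl2 and Cxcl13. Epithelial injury genes are given beside them. Havcr1, the proximal tubule injury marker KIM-1, measured 0.529, 1.89, 4.75 and 0.521 scaled FPKM in the WT libraries and 0.484 to 0.658 in KO, so that WT replicates 2 and 3 stood out and KO replicate 3, at 0.484, did not. Lcn2, encoding the lipocalin NGAL, measured 0.781, 2.06, 3.41 and 0.543 in WT and 0.646, 0.586, 4.08 and 0.353 in KO, with its highest values in KO replicate 3 and WT replicate 3. Ccl28 ran the other way in WT, where replicates 2 and 3 were its lowest libraries. The part of injury in any of these values was not tested.

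**Figure D3:**
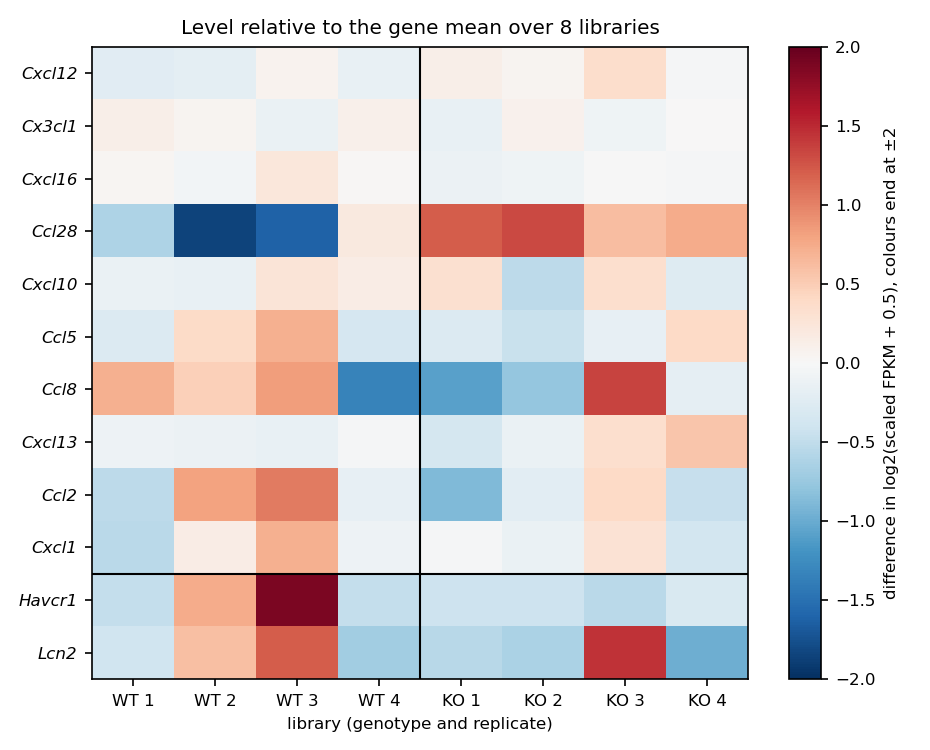
Difference of log2(scaled FPKM + 0.5) from the gene's mean over the 8 libraries (colour, red above and blue below, ending at ±2) for the 10 chemokines and, under the line, the injury genes Havcr1 and Lcn2; columns are libraries. WT replicates 2 and 3 are low for Ccl28 (1.36 and 1.69 scaled FPKM) and high for Ccl2 (1.91 and 2.34) and Havcr1 (1.89 and 4.75).

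No gene of the 5 leukocyte lists was called, against 0.0499% of all genes, and the summed levels of each list overlapped between the genotypes. The macrophage list, 10 of 10 genes tested, summed to 123 to 149 scaled FPKM in WT and 115 to 181 in KO, with KO replicate 3 highest. Its defining gene Adgre1 (F4/80) measured 2.41 to 3.93 in WT and 2.92 to 3.77 in KO, and C1qb, a complement subunit and the gene of smallest p, 24.9 ± 1.34 and 20.8 ± 4.54 (limma adjusted p = 0.364). The 10 T and NK cell genes summed to 6.35 to 7.44 in WT and 5.19 to 8.93 in KO, with Cd3e at 0.392 to 0.951 over all libraries and Cd4, of smallest p among the 6 tested, at 0.639 ± 0.145 and 0.847 ± 0.168 (limma adjusted p = 0.430). The 7 B and plasma cell genes summed to 9.66 to 27.2 in WT and 15.5 to 24.4 in KO. Jchain, which joins secreted IgA in the plasma cells that CCL28 attracts, was the gene of smallest p among the 5 tested. It measured 15.2, 1.95, 9.39 and 5.31 scaled FPKM in WT and 11.2, 14.0, 13.9 and 7.98 in KO. Its groups overlapped, with a log2 difference of 0.81 (SE 0.48, limma adjusted p = 0.434) that did not pass. It was 0.31 without WT replicate 2 and 1.20 without WT replicate 1. WT replicate 2 was the lowest of the 8 libraries for both Jchain and Ccl28, whereas WT replicate 1, the highest for Jchain, ranked 6 for Ccl28. A link between the 2 genes was not tested. Neutrophil genes (4 measured, 3 tested) summed to 2.10 to 4.17 in WT and 2.31 to 5.85 in KO, with S100a8 of smallest p (limma adjusted p = 0.6005). Dendritic cell genes (5 measured, 3 tested) summed to 5.01 to 6.65 and 5.05 to 5.42. The integrin gene Itgax had the smallest p (1.81 ± 0.143 and 1.49 ± 0.116, limma adjusted p = 0.305). Its groups did not overlap, 1 of 3 tested genes against 8.62% of all genes. No gene of these 5 lists was at 0 reads in all libraries.

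The receptors were mostly low, and none passed the test. Of 23 receptor genes, 7 reached the filter and 0 were called, against 0.0499% of all genes, with 0 at an unadjusted p under 0.05 and a median log2 difference of -0.13 beside -0.001 for all genes tested. Ackr3, the atypical receptor that scavenges CXCL12, was by far the most abundant at 14.6 ± 2.17 scaled FPKM in WT and 13.2 ± 1.29 in KO (log2 difference -0.13, SE 0.10, limma adjusted p = 0.575). Cxcr4, the signalling receptor of CXCL12, measured 2.36 ± 0.235 and 2.12 ± 0.346 (-0.13, SE 0.11, adjusted p = 0.590 in limma). Ccrl2, a chemerin-binding relative of these receptors, had the smallest p of the receptors at 2.41 ± 0.250 and 2.15 ± 0.0781 (-0.14, limma adjusted p = 0.466).

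Leukocyte receptors of the other members were also low. Cx3cr1, the fractalkine receptor of resident macrophages, was at 2.08 ± 0.642 scaled FPKM in WT and at 2.23 ± 0.330 in KO, a log2 difference whose 95% interval ran from -0.27 to 0.48. Ccr2 measured 1.01 ± 0.302 and 1.08 ± 0.198, Cxcr6 (the receptor of CXCL16) 0.811 ± 0.0595 and 0.743 ± 0.263, and Cxcr3 0.653 ± 0.0723 and 0.539 ± 0.222, with limma adjusted p from 0.641 to 0.850 for these 4. Cxcr5, Ccr1, Cxcr2 and Ccr8 were under the filter, at 54, 61, 16 and 4 reads over all 8 libraries, and no difference could be judged at that depth.

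Both receptors of CCL28 were at the edge of detection. Ccr10 had 12, 10, 12 and 7 reads in WT and 4, 10, 5 and 2 in KO, or 0.363 ± 0.0904 and 0.172 ± 0.0910 scaled FPKM (mean ± SD). The KO libraries reached lower, but KO replicate 2 overlapped WT, and the ratio of the summed reads, KO over WT, was 0.492 (exact 95% interval 0.276 to 0.852, counting error only). Ccr10 was under the filter, and with no filter its limma adjusted p was 0.318. Ccr3 had 9 reads in WT and 10 in KO over 4 libraries each.

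Among the other ligands none passed the test. Of 31 other ligand genes listed, 26 were matched in the table, 12 reached the filter and 0 were called, against 0.0499% of all genes, with 1 at an unadjusted p under 0.05 against 15.4% of all genes. Their median log2 difference was -0.03. The most abundant were Cxcl14, an epithelial and stromal chemokine, at 18.6 ± 2.75 scaled FPKM in WT and 16.8 ± 4.41 in KO, Ccl27a, whose product shares CCR10 with CCL28, at 9.74 ± 0.365 and 9.33 ± 0.602, and Ccl25, the thymus and gut chemokine, at 4.98 ± 0.314 and 4.93 ± 0.825. Ccl27a, measured on 125 to 189 reads per library, had a log2 difference of -0.06 with a 95% interval of -0.19 to 0.08. Ccl21a, a lymphatic endothelial chemokine with near-identical copies that make its count uncertain, was at 4.91 ± 0.795 and 3.88 ± 0.453 (-0.30, SE 0.12, limma adjusted p = 0.280), and Ccl6, a macrophage product, at 2.65 ± 0.598 and 2.05 ± 0.362 (-0.29, limma adjusted p = 0.360, and -0.17 without WT replicate 3).

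Upstream signalling was followed through lists of NF-kB and interferon genes. Of 13 tested NF-kB subunits and targets 0 were called, against 0.0499% of all genes. At an unadjusted limma p under 0.05 there was 1 of 13, against 15.4% of all genes. Groups without overlap were found in 0 of 13, against 8.62%. In KO 12 of 13 were lower, against 50.4% of all genes tested, with a median log2 difference of -0.10. The summed level of the 16 listed genes was highest in WT replicate 3, at 114 scaled FPKM. The other WT libraries were at 99.8 to 101.4 and those of KO at 87.9 to 103. The part of WT replicate 3 in the median was not tested. Nfkb2, which encodes the p100 precursor, had the smallest p at 7.19 ± 0.351 scaled FPKM in WT and 6.23 ± 0.620 in KO (limma adjusted p = 0.276). Of 11 tested interferon response genes 0 were called, with 5 higher, 6 lower and a median of -0.02. Isg15, a ubiquitin-like protein induced by interferon, measured 4.01 ± 1.04 and 4.93 ± 0.523 (limma adjusted p = 0.382). Among 8 tested tubule injury genes 0 were called and 6 were lower, against 50.4% of all genes, with a median of -0.26. This is the list whose sum stood apart in WT replicate 3 (798.6 scaled FPKM), and the part of that library in the median was not tested. Sox9, a transcription factor of repairing tubules, had the smallest p (0.795 ± 0.290 and 0.472 ± 0.0879 scaled FPKM, limma adjusted p = 0.322).

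Genes whose pattern was most like that of Ccl28 were sought among 12487 tested genes with a mean of at least 1 scaled FPKM, by Pearson's r of log2(scaled FPKM + 0.5) over the 8 libraries. These are descriptions with no p, as the 5 highest of so many values. All 5 also tracked Ccl28 after the mean of each genotype was removed, in the same libraries by which they were chosen. All genes share the depth and base composition of each library. Fmo5, a flavin-containing monooxygenase gene, led with r = 0.98 (0.94 with genotype means removed). It measured 25.9, 20.9, 20.9 and 28.6 scaled FPKM in WT and 35.3, 32.7, 32.5 and 33.4 in KO. Edem3, which trims sugars from misfolded glycoproteins, followed at 0.97 (0.94), and Secisbp2l, a relative of the selenocysteine insertion factor, at 0.97 (0.91). Cyp2j13, a cytochrome P450 gene, was at 0.97 (0.92), with 68.5, 46.6, 52.3 and 76.1 in WT and 97.7, 84.2, 81.9 and 86.6 in KO. Pdpr, a regulatory subunit gene of pyruvate dehydrogenase phosphatase, was at 0.97 (0.93). In each of the 5, WT replicate 4 was the highest WT library and replicates 2 and 3 were the lowest 2, the same order of high and low as for Ccl28. Since the genes were chosen for a high r with Ccl28 over these libraries, the shared order restates that choice. None of the 5 was called (0 of 5).

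**Figure D4:**
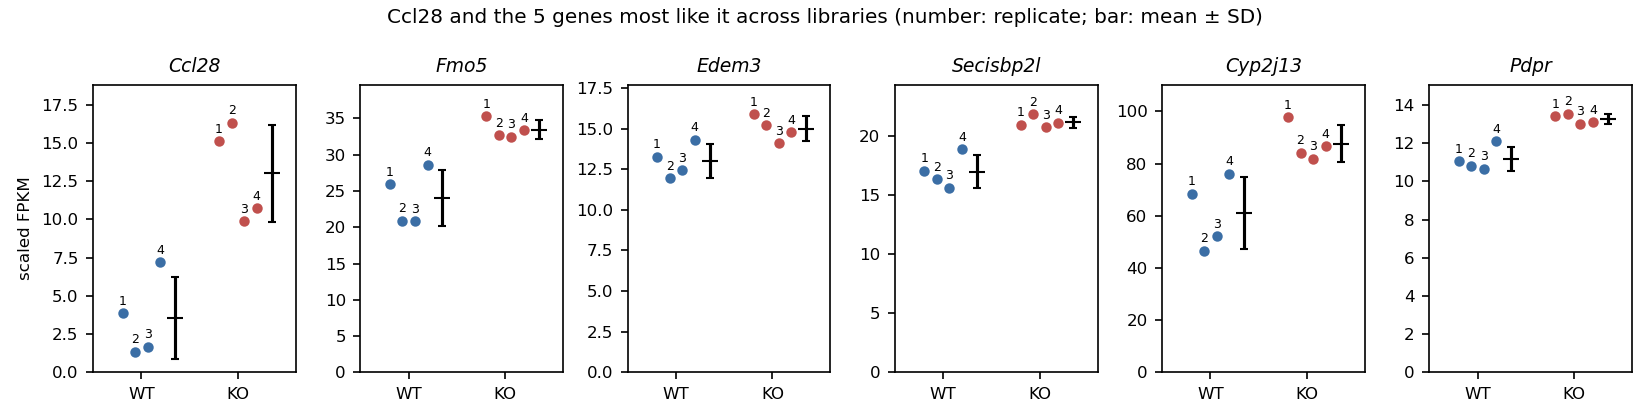
Scaled FPKM (vertical axes, linear, from 0) of Ccl28 and of the 5 genes with the highest Pearson's r with it over the 8 libraries; points are WT (blue) and KO (red) libraries with replicate numbers and the bar is the mean ± SD (n = 4). WT replicates 1 and 4 lie above WT replicates 2 and 3 in all 6 panels.

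The epithelium was followed by markers of its segments. Of 8 proximal tubule markers tested 0 were called. At an unadjusted p under 0.05 there were 4 of 8, against 15.4% of all genes, with Slc22a8, Slc5a2 and Slc34a1 lower and Slc7a13 higher in KO. Slc7a13, an aspartate and glutamate exchanger of the straight proximal tubule, measured 440, 399, 286 and 438 scaled FPKM in WT and 565, 482, 511 and 498 in KO (log2 difference 0.41, SE 0.13, limma adjusted p = 0.213). Like Ccl28, it had its lowest WT values in replicates 2 and 3 and did not overlap between the groups. Unlike Ccl28, its WT replicate 2 (399) lay near WT replicates 1 and 4 (440 and 438). Slc22a8, an organic anion transporter, ran opposite at 231 ± 28.9 and 165 ± 17.0 scaled FPKM (-0.49, SE 0.10, limma adjusted p = 0.137). The 8 distal tubule and collecting duct markers (0 called, median -0.04) summed to 1862 to 2527 in WT and 2011 to 2760 in KO, with Foxi1 of smallest p (limma adjusted p = 0.243). Of the 5 podocyte, 8 endothelial and 8 stromal genes tested 0 were called, with Wt1 (limma adjusted p = 0.392), Tek (0.483) and Pdgfrb (0.340) of smallest p. Which cell type made the Ccl28 transcripts was not tested.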

How the data were processed

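Poly-A RNA of 8 kidneys was sequenced. The authors deposited FPKM per gene and library, per the file headers. The submitters' processing notes list CASAVA, STAR 2.5, HTSeq 0.6.1, DESeq2 and build mm10, with no role for any. Annotation release and strand setting are not given in the sources used here. Multiplied by gene length, the FPKM were whole multiples of 1 step per library for 100% of values within 0.01, and so gave reads per gene. The series text calls the 4 animals per genotype biological replicates. The p-values therefore set the genotype difference against the spread between animals, moderated across the fitted genes.

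Each library's FPKM was divided by its median-ratio factor. Genes with a mean of at least 0.5 were kept (14030), and log2(value + 0.5) was fitted across all of them by limma 3.58.1 (R 4.3.3) with genotype as the only term, moderated with a mean-variance trend, two-sided and adjusted by Benjamini-Hochberg, with a call under 0.05. A fold change on this scale understates that of low genes. With 0.0499% of all genes called, a count of 0 called in a short list tells little about that list. Intervals of reads are exact at 95% and cover counting error only. The fit was tested on simulated data. There the genes varied independently and with the same relative spread beyond counting, so patterns shared across libraries were not covered.

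The members and lists were chosen with earlier results of these data known. The rule named the 10 members, their receptors, the 3 most abundant and the 2 of smallest p among other ligands and among receptors, the 1 of smallest p in each further list, the 5 genes most like Ccl28, and C1qtnf1. Adgre1, Cd3e, Havcr1, Lcn2, Adam10, Dpp4, Slc7a13, Slc5a2, Slc34a1, Zmynd15, Art3, Xist and Ddx3y were named outside it, after values were seen. So were Cxcl5, Cxcl11 and Slco1a1. On the lists, 5 other ligands and 2 neutrophil genes were not analysed here, and some genes are not reported here.

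Alternatives were pseudocounts of 0.1 and 1, other filters, scalings and moderation, limma's voom on the reads, splines of GC content and length (4 degrees of freedom, GC known for 99.5% of genes) and leaving out each library.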

Additional observations from a re-analysis of the deposited data

Results flagged for a closer look

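Among 58 groups of 4 libraries checked (the 10 chemokines and the 19 tested other ligands and receptors, in each genotype), 1 held a library far from the other 3, where chance gives about 1 group in 20. Cxcl9, an interferon-induced ligand of CXCR3, measured 0.329 scaled FPKM in KO replicate 2 against 0.585 to 0.634 in the other KO libraries. These values rest on 19 reads against 27 to 30. Cxcl10, induced by the same signal, was also lowest in that library, at 2.48. Isg15 went the other way and was highest there, at 5.39, and Cxcl11, at 0.186, lay between other KO libraries.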

How the results depend on the processing

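Of the 10 chemokines, 0 were called under 18 of 19 alternatives and 1, Ccl28, without WT replicate 4, so that leaving out a library gave 0 to 1. Over all genes 7 were called, and 5 to 16 when a library was left out, with 16 without WT replicate 3. No other ligand and no receptor was called under any of the 19. Cx3cl1 (0.006 after removal of GC and length trends), Cxcl1 (0.10 without WT replicate 3) and Cxcl10 (up to 0.11) crossed 0 on the log2 scale. Other small differences changed sign: when single libraries were left out, the log2 difference ran from -0.12 to 0.029 for Ccl25, -0.0050 to 0.20 for Ccr2, -0.032 to 0.25 for Cx3cr1 and -0.21 to 0.045 for Cxcr6. After removal of GC and length trends it was 0.014 for Ccl27a and -0.036 for Ccr2. The cause was not tested. No paired analysis was possible because the labels give animals of the 2 genotypes no shared number. Genes of few reads, such as Cxcl1 at 6 to 25 per library, are limited by depth. Cxcl1 also varied beyond counting error within WT (chi-square per degree of freedom 4.56, against 1.26 in KO).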

Other observations

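Cxcl5 and Cxcl11, chemokine genes under the filter, and Slco1a1, a gene above it, were chosen after their values were seen. Cxcl5, a neutrophil attractant of epithelial cells, had 17 reads in KO replicate 3, the library with the highest Lcn2, and 4 reads in the other 7 libraries together. Cxcl11, the third CXCR3 ligand, had 25 reads in WT and 49 in KO, a ratio of 1.88 (exact 95% interval 1.14 to 3.18, counting error only) whose libraries overlapped, with a limma adjusted p of 0.456 when no filter was set. Slco1a1, an organic anion transporter gene of the proximal tubule, measured 39.2, 19.8, 7.87 and 41.9 scaled FPKM in WT and 98.8, 63.6, 65.3 and 59.5 in KO. Like Ccl28, it was lowest in WT replicates 2 and 3, and its groups did not overlap. The order within KO differed, with Slco1a1 highest in KO replicate 1 and Ccl28 in KO replicate 2.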
